A study of Homo sapiens with 14 samples.

Results

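Sterol and fatty acid synthesis was followed through 31 listed genes in PANC-1 cells, a human pancreatic ductal carcinoma line. A gene counted as measured when the annotation gave at least 1 probe set to that gene alone, and, of several, the one brightest on average across the 14 arrays stood for it. By that rule 29 of the 31 genes were measured, out of 18129 genes on the array. FDFT1 (squalene synthase) had no such probe set and the 2 probe sets of CYP51A1 (lanosterol demethylase) named several genes, so the expression of both was not analysed here. The 29 genes fell into 15 sterol enzymes, 8 fatty acid enzymes and 6 regulators and accessory genes (INSIG1, SREBF1, SREBF2, STARD4, AACS and LPIN1).

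All cells were kept for 24 h in medium with 1% serum and then treated for 48 h, in 4 groups. Control cells (4 arrays) received vehicle, and the TGFb1 group (4 arrays) received 5 ng/ml of transforming growth factor beta 1, a cytokine used to induce epithelial-to-mesenchymal transition. The third group (3 arrays) received TGFb1 with 2.5 µM acriflavine, an acridine dye, and the fourth (3 arrays) received TGFb1 with 2 mM sodium valproate, a histone deacetylase inhibitor. The submitters describe the replicates as biological. All of them come from this single line, every added compound was given on top of TGFb1, and a group with acriflavine alone that the submitters mention was not analysed here.

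The sterol enzymes build cholesterol from acetyl-CoA through mevalonate, isoprenoid diphosphates and squalene to the sterol ring. The fatty acid enzymes make cytosolic acetyl-CoA (ACLY, ACSS2), carboxylate it (ACACA), polymerise it into palmitate (FASN), and elongate or desaturate the chain (ELOVL6, SCD, FADS1, FADS2). Both branches are known targets of the sterol regulatory element-binding proteins, membrane-bound transcription factors that INSIG proteins hold in the endoplasmic reticulum when sterols are plentiful. SREBF2 encodes the form tied mainly to sterol genes, and SREBF1 the forms tied mainly to fatty acid genes.

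Values are log2 intensities, so a difference of 1 is a doubling of signal. Levels are compared for the same probe set between groups and never between genes. A gene was tested when its mean was outside the dimmest 40% of genes, that is at or above 6.89, and 10877 genes passed. ELOVL6, with a mean of 4.84, lay below that limit, which left 28 members: 15 sterol enzymes, 7 fatty acid enzymes and 6 regulators. A gene was said to rise or fall when its adjusted p in limma (Benjamini-Hochberg over the 10877 genes) was under 0.05, and changes are given ± standard error.

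A few arrays differed from their group more than the rest. Measured as the SD over genes of the distance to the group mean, TGFb1 replicate 4 reached 0.375, TGFb1 replicate 2 reached 0.256 and control replicate 4 reached 0.25, while the remaining arrays lay between 0.0665 and 0.16. Counts are therefore also given without both replicates 4, and without these and TGFb1 replicate 2. The second of these settings was chosen after the data were seen and leaves 2 TGFb1 arrays. All 7 markers of the PANC-1 line that were looked up were above the brightness limit, among them KRT8 at 13.82 in control. Of the measured markers of other cell types, those above the limit were 2 of 9 for hepatocytes (APOA1 at 7.46 and TTR at 7.13 in control). For leukocytes it was 1 of 5 (LAPTM5, 6.56 in control and 7.43 with TGFb1) and for endothelium 1 of 5 (ESAM). For acinar cells it was 1 of 4 (PRSS1, 7.70 in control and 7.77 with TGFb1), and for islet cells none of 3. Adipocyte and fibroblast markers are given further below. ALB, PTPRC and PECAM1 lay at or below 6.18 in every group mean. In RNA from whole cultures, fewer cells that express a gene and less RNA per cell cannot be told apart.

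The promoters were searched for sequence elements known to serve this pathway. RefSeq promoters (GRCh38.p14) were found for 28 of the 31 listed genes, not the same 28 as those tested: CYP51A1 and ELOVL6 are included, SQLE, FASN and FDFT1 are not, and the 250 bases before each start were searched on both strands. The searched letters were TCACNCCAC (a core of the sterol regulatory element), its shorter form CACNCCAC, which every TCACNCCAC contains, CCAAT (the box bound by NF-Y), CACGTG (an E-box) and GGGCGG (a GC box). Among genes with a promoter, CCAAT was present in 13 of 15 sterol enzymes (86.7%), 4 of 7 fatty acid enzymes (57.1%) and 3 of 6 regulators (50%), beside 41.5% of the 9000 tested genes that have a promoter there and 32% of all 35116 promoter windows. CACNCCAC was present in 6 of 28 members (21.4%), namely IDI1, SC5D, ACACA, SCD, INSIG1 and SREBF2, beside 6.59% of the tested genes and 4.87% of all windows. TCACNCCAC was found in SREBF2 alone, beside 1.21% of the tested genes and 0.883% of all windows. GGGCGG was present in 27 of 28 members (96.4%) beside 76.2% of the tested genes and 42.6% of all windows, and CACGTG in 2 of 28 (7.14%) beside 11.5% and 6.34%. Genes with several starts were counted once, with a match in any window.

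The stretches of 120 bases below lie before the start, 5′ to 3′ on the gene's strand, and come from the sterol enzymes that rose with valproate and the fatty acid enzymes that fell with acriflavine, both against TGFb1. INSIG1 and SREBF2 are added as the 2 regulators that hold CACNCCAC. In the reported fit SREBF2 passed the test in no comparison, though it passed in some of the other settings given below. FASN has no entry and is named only. Capitals mark CCAAT or its reverse complement ATTGG, and CACNCCAC, TCACNCCAC or their reverse complements.
MSMO1 (chr4:165327530-165327649, + strand): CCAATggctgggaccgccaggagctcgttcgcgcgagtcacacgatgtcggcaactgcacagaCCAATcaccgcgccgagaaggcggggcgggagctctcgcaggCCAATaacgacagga
TM7SF2 (chr11:65111752-65111871, + strand): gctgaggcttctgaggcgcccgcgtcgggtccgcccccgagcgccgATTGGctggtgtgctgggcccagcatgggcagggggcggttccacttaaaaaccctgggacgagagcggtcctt
SC5D (chr11:121292651-121292770, + strand): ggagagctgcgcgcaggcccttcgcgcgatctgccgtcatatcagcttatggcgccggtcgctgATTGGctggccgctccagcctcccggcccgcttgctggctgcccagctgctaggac
IDI1 (chr10:1049215-1049334, - strand): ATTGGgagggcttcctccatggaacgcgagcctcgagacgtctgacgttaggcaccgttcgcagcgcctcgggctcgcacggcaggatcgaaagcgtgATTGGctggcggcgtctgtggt
HSD17B7 (chr1:162790582-162790701, + strand): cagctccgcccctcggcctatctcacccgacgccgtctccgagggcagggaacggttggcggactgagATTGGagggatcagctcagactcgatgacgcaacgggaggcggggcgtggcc
SCD (chr10:100347047-100347166, + strand): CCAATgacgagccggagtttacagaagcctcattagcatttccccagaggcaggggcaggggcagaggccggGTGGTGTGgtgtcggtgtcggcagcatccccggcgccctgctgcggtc
ACACA (chr17:37299872-37299991, - strand): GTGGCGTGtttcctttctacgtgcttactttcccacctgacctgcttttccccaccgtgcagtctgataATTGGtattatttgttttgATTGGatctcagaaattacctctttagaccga
FADS1 (chr11:61817004-61817123, - strand): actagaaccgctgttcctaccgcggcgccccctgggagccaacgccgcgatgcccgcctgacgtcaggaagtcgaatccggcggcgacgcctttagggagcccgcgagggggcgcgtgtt
FADS2 (chr11:61816083-61816202, + strand): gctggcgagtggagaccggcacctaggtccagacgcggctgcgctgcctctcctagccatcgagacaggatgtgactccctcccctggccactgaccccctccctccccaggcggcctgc
INSIG1 (chr7:155297670-155297789, + strand): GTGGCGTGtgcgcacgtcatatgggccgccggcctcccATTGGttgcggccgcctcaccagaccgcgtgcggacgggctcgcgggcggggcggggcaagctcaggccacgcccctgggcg
SREBF2 (chr22:41832972-41833091, + strand): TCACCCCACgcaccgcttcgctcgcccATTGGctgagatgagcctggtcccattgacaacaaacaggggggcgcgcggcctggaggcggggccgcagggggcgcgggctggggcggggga
Each stretch was picked as the one with the most capitalised letters among the windows used, so matches in it were favoured. The 5 sterol enzymes each show 1 to 3 CCAAT boxes. SCD shows 1 CCAAT box and 1 CACNCCAC match, ACACA shows 2 and 1, and the FADS1 and FADS2 stretches show none. The CACNCCAC matches of IDI1 and SC5D lie outside the stretches shown. A match describes the letters only.

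The first comparison asked what TGFb1 changed in these genes. TGFb1 moved few of them past the test: MSMO1 (the C-4 sterol methyl oxidase) and INSIG1 (the sterol-sensing retention protein) rose, and TM7SF2 (a sterol C-14 reductase) and LPIN1 (lipin 1, a phosphatidate phosphatase) fell. Of 15 sterol enzymes 1 rose and 1 fell, of 7 fatty acid enzymes none rose or fell, and of 6 regulators 1 rose and 1 fell. Over all genes tested 8.39% rose and 9.97% fell, 18.4% together. The changes of the 7 fatty acid enzymes ran from -0.14 to 0.39, and at an unadjusted p under 0.05 in limma 1 of them was higher and none lower, beside 8 sterol enzymes higher and 1 lower. For SCD (the delta-9 desaturase) the kept probe set, close to the top of the scale, changed by 0.12, but 3 of its 4 probe sets rose and their mean changed by 0.39 (adjusted p = 0.00393).

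TM7SF2 read 9.65, 10.29, 9.68 and 10.24 in the 4 control arrays and 8.96, 9.44, 8.83 and 8.5 in the 4 TGFb1 arrays. Each TGFb1 array lay below each control array. The change was -1.03 ± 0.207, which is 2.04-fold lower (adjusted p = 0.00331), and it passed in each of the 19 alternative settings in which it could be tested. All 5 of its probe sets fell, by between -1.03 and -0.33. The fall was -0.79 within replicates 1 to 3 and -1.74 between the replicates 4.

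LPIN1 read 10.50, 10.52, 10.60 and 10.86 in control and 10.00, 10.03, 9.95 and 10.12 with TGFb1. The groups did not overlap, and the change of -0.60 ± 0.0937 (1.51-fold lower, adjusted p = 0.000515) was carried by all 3 probe sets. INSIG1 read 10.70, 11.13, 10.95 and 11.28 in control and 11.53, 11.39, 11.61 and 12.28 with TGFb1. Every TGFb1 array was above every control array, with TGFb1 replicate 4 the highest, and the change was 0.69 ± 0.185 (1.61-fold higher, adjusted p = 0.02). Without control replicate 1 the INSIG1 change was 0.58 (adjusted p = 0.0621) and without control replicate 3 it was 0.67 (adjusted p = 0.0547), neither of which passes.

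MSMO1 read 10.98, 11.41, 11.13 and 11.58 in control and 11.54, 11.79, 11.49 and 12.13 with TGFb1. The groups overlapped, and the change of 0.46 ± 0.151 only just passed (adjusted p = 0.0479). It no longer passed in 9 of 20 alternative settings, among them leaving out control replicate 1, 2 or 3 or TGFb1 replicate 2 or 4.

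The remaining sterol enzymes did not pass, although 13 of the 15 had a change above 0 and their median was 0.34, beside 0.00 over all genes tested. The changes were 0.54 ± 0.229 for HMGCS1 (HMG-CoA synthase, adjusted p = 0.125), 0.83 ± 0.293 for FDPS (farnesyl diphosphate synthase, 0.0646), 0.43 ± 0.145 for HSD17B7 (a sterol 3-ketoreductase, 0.0559) and 0.40 ± 0.145 for NSDHL (the C-4 sterol decarboxylase, 0.0757). For MVK, MVD, IDI1, SQLE, LSS, EBP, SC5D and DHCR7 the changes lay between 0.10 and 0.38, and for PMVK the change was -0.07. Over replicates 1 to 4, deviations of same-numbered control and TGFb1 arrays correlated at 0.387, 0.359, 0.543 and 0.705. Over replicates 1 to 3 alone these were -0.258, 0.151 and 0.589. With the replicate number as a block 5 sterol enzymes rose in place of 1, and a batch term for the replicates 4 also gave 5. In the block fit HMGCS1 (adjusted p = 0.0385), FDPS (0.0123), HSD17B7 (0.023) and NSDHL (0.0224) passed beside MSMO1, and so did STARD4 (0.0327), while 28.9% of all genes were called.

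The replicate number went with the sterol enzymes inside the control and TGFb1 groups as well. Their mean, set against the control mean, was -0.21, 0.16, -0.16 and 0.21 in control replicates 1 to 4 and 0.12, 0.46, -0.02 and 0.48 in TGFb1 replicates 1 to 4. In both groups the arrays numbered 2 and 4 were higher than those numbered 1 and 3. Replicates 1 to 3 stood at 0.30, 0.38 and 0.30 with acriflavine and at 0.94, 0.47 and 0.72 with valproate, where replicate 2 was the lowest. The TGFb1 median over the sterol enzymes was 0.33 within replicates 1 to 3 and 0.48 between the replicates 4. Without the replicates 4, 3 sterol enzymes rose and 1 fell (29% of all genes called), and without TGFb1 replicate 2 as well, 1 rose and 1 fell (25.3% called). No fatty acid enzyme passed in either setting. With single arrays left out, the sterol enzymes that rose numbered 0 without control replicate 1 and 5 without TGFb1 replicate 3.

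**Figure D1:**
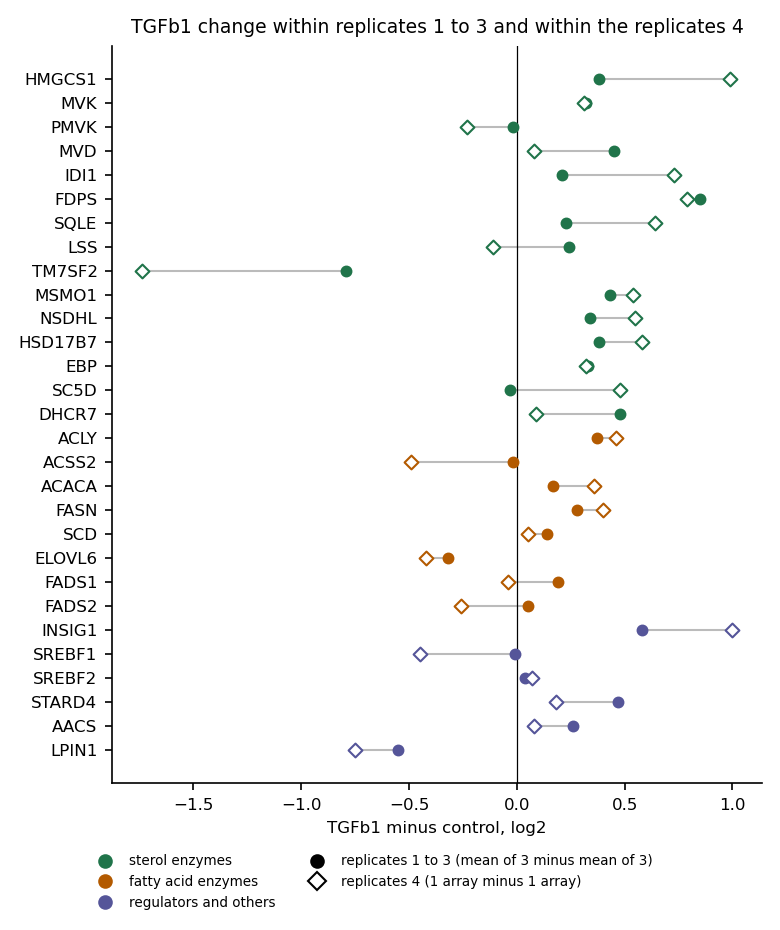
The difference TGFb1 minus control (x axis, log2) for each of the 29 measured genes, within replicates 1 to 3 (filled circles) and between the replicates 4 (open diamonds, 1 array each); colours mark the 3 gene lists. TM7SF2 is at -0.79 and -1.74, HMGCS1 at 0.38 and 0.99, and SREBF1 at -0.01 and -0.45.

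The second comparison asked what acriflavine changed in TGFb1-treated cells. The 5 enzymes from the carboxylation of acetyl-CoA to the desaturation of fatty acids fell: ACACA, FASN, SCD, FADS1 and FADS2, by 1.58-fold to 1.88-fold. The 2 enzymes that supply cytosolic acetyl-CoA did not pass, with 0.36 ± 0.219 for ACLY (ATP citrate lyase, adjusted p = 0.209) and 0.13 ± 0.191 for ACSS2 (acetyl-CoA synthetase, 0.608). Of 15 sterol enzymes 2 rose and 1 fell, and of 6 regulators 1 rose and 2 fell. Over all genes tested 24.5% rose and 19.1% fell, 43.6% together, so 5 falls among 7 fatty acid enzymes (71.4%) stood beside a background of 19.1%, and 1 fall among 15 sterol enzymes (6.67%) stood beside the same background.

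FADS2 (the delta-6 desaturase) read 11.31, 11.65, 11.18 and 10.98 in the TGFb1 arrays and 10.36, 10.37 and 10.37 with acriflavine added. The 3 acriflavine arrays lay within 0.01 of each other and below every TGFb1 array. The change was -0.91 ± 0.15, or 1.88-fold lower (adjusted p = 0.000255), and all 4 probe sets fell, by between -1.09 and -0.91. In control cells FADS2 read 11.14, 11.60, 11.25 and 11.24, so the acriflavine arrays were also below each of those.

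FASN (fatty acid synthase) read 10.00, 10.44, 9.92 and 9.92 with TGFb1 and 9.09, 9.34 and 9.24 with acriflavine. The groups did not overlap, and the change was -0.85 ± 0.149 (1.81-fold lower, adjusted p = 0.000416). Control arrays read 9.84, 9.94, 9.77 and 9.52, again above every acriflavine array. FASN has 1 probe set.

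SCD (the delta-9 desaturase that makes oleate) read 13.88, 13.92, 13.90 and 14.18 with TGFb1 and 13.18, 13.16 and 13.24 with acriflavine. All acriflavine arrays were below all TGFb1 arrays, by -0.78 ± 0.106 (1.71-fold, adjusted p = 5.75e-05). This was the smallest fall among its 4 probe sets, which ran from -1.81 to -0.78 and all fell. The probe set kept by the rule is close to the top of the scale, whose highest value anywhere was 15.08. In control SCD read 13.67, 13.86, 13.76 and 14.13.

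ACACA (acetyl-CoA carboxylase) fell by 0.77 ± 0.183 on the log2 scale, from a mean of 10.59 ± 0.398 (SD, n = 4) to 9.83 ± 0.00753 (SD, n = 3), with an adjusted p of 0.00389 in limma. FADS1 (the delta-5 desaturase) fell by 0.66 ± 0.0923, from 12.35 ± 0.0626 (SD, n = 4) to 11.69 ± 0.0888 (SD, n = 3), with an adjusted p of 7.34e-05 in limma. Neither overlapped between the groups. The 5 falls passed in each of the alternative settings run for them. ACACA was at -0.46 without the replicates 4 and TGFb1 replicate 2, and over its alternatives SCD ran from -1.5 to -0.70. ELOVL6, below the brightness limit, read 4.32, 4.02, 4.55 and 4.58 with TGFb1 and 4.49, 4.44 and 4.41 with acriflavine, which overlap.

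Among the sterol enzymes DHCR7 (7-dehydrocholesterol reductase, the last step to cholesterol) fell. It read 11.90, 12.28, 11.73 and 12.02 with TGFb1 and 11.14, 11.41 and 11.21 with acriflavine, with no overlap. The change was -0.73 ± 0.172 (1.66-fold lower, adjusted p = 0.00357) and it passed in all 19 alternative settings. Control arrays read 11.30, 11.85, 11.31 and 11.93, a range that the acriflavine arrays overlap.

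MSMO1 and PMVK rose. MSMO1 read 12.18, 12.24 and 12.19 with acriflavine, above the 4 TGFb1 arrays given above (11.49 to 12.13), a change of 0.47 ± 0.163 (1.38-fold, adjusted p = 0.0321). It did not pass in 7 of 19 alternative settings, among them leaving out TGFb1 replicate 1 or 3 or any 1 of the acriflavine arrays. PMVK (phosphomevalonate kinase) read 9.5, 9.73, 9.40 and 9.47 with TGFb1 and 9.91, 9.85 and 9.81 with acriflavine, which do not overlap. Its change was 0.33 ± 0.0972 (1.26-fold, adjusted p = 0.0129), and 0.31 (adjusted p = 0.0561) without acriflavine replicate 1.

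The other 12 sterol enzymes had changes between -0.32 (LSS, lanosterol synthase) and 0.42 (FDPS), and the median of all 15 was 0.16, beside 0.03 over all genes. These values moved with the 3 arrays that stood apart. Without the replicates 4, 4 sterol enzymes rose and 2 fell, and without TGFb1 replicate 2 as well, 8 rose and 1 fell, while 57.8% and 62.1% of all genes were called. In the latter setting HMGCS1 (0.60, adjusted p = 0.0107), IDI1 (isopentenyl diphosphate isomerase, 0.42, 0.0287), FDPS (0.83, 0.0144), SQLE (squalene epoxidase, 0.32, 0.0287), NSDHL (0.44, 0.00129) and HSD17B7 (0.46, 0.0107) passed. For SQLE the value with all arrays was -0.03. The count of falls among fatty acid enzymes was 5 in both settings, and ACLY rose by 0.72 (adjusted p = 0.000181) in the latter.

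Of the regulators, SREBF1 read 9.54, 9.80, 9.60 and 9.07 with TGFb1 and 9.06, 9.0 and 9.02 with acriflavine. TGFb1 replicate 4, at 9.07, lay next to the acriflavine arrays and the other 3 lay well above them. The fall was -0.48 ± 0.135 (1.39-fold, adjusted p = 0.011). Only 1 of its 3 probe sets fell, and the mean of the 3 changed by -0.30 (adjusted p = 0.0622). SREBF2 read 9.26, 9.51, 9.32 and 8.90 with TGFb1 and 9.21, 9.10 and 9.27 with acriflavine, a change of -0.06 ± 0.143 (adjusted p = 0.776) between overlapping groups. Without TGFb1 replicate 4 the value for INSIG1 was 0.53 (adjusted p = 0.01). With all arrays INSIG1 read 12.02, 12.09 and 12.01 with acriflavine, a change of 0.34 ± 0.2 (adjusted p = 0.192) that did not pass.

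LPIN1 fell further, to 9.66, 9.57 and 9.65 with acriflavine, below all TGFb1 arrays (9.95 to 10.12). The change was -0.40 ± 0.101 (1.32-fold, adjusted p = 0.00585), and 2 of its 3 probe sets fell. AACS (acetoacetyl-CoA synthetase, which feeds ketone bodies into lipid synthesis) read 9.5, 9.95, 9.42 and 9.83 with TGFb1 and 10.36, 10.30 and 10.06 with acriflavine. The groups did not overlap, and it rose by 0.57 ± 0.164 (1.48-fold, adjusted p = 0.0123), or by 0.51 (adjusted p = 0.0564) without acriflavine replicate 1. STARD4 (a sterol carrier protein) read 8.52, 8.65, 8.37 and 8.76 with TGFb1 and 8.64, 8.60 and 8.80 with acriflavine, a change of 0.11 ± 0.164 (adjusted p = 0.634).

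**Figure D2:**
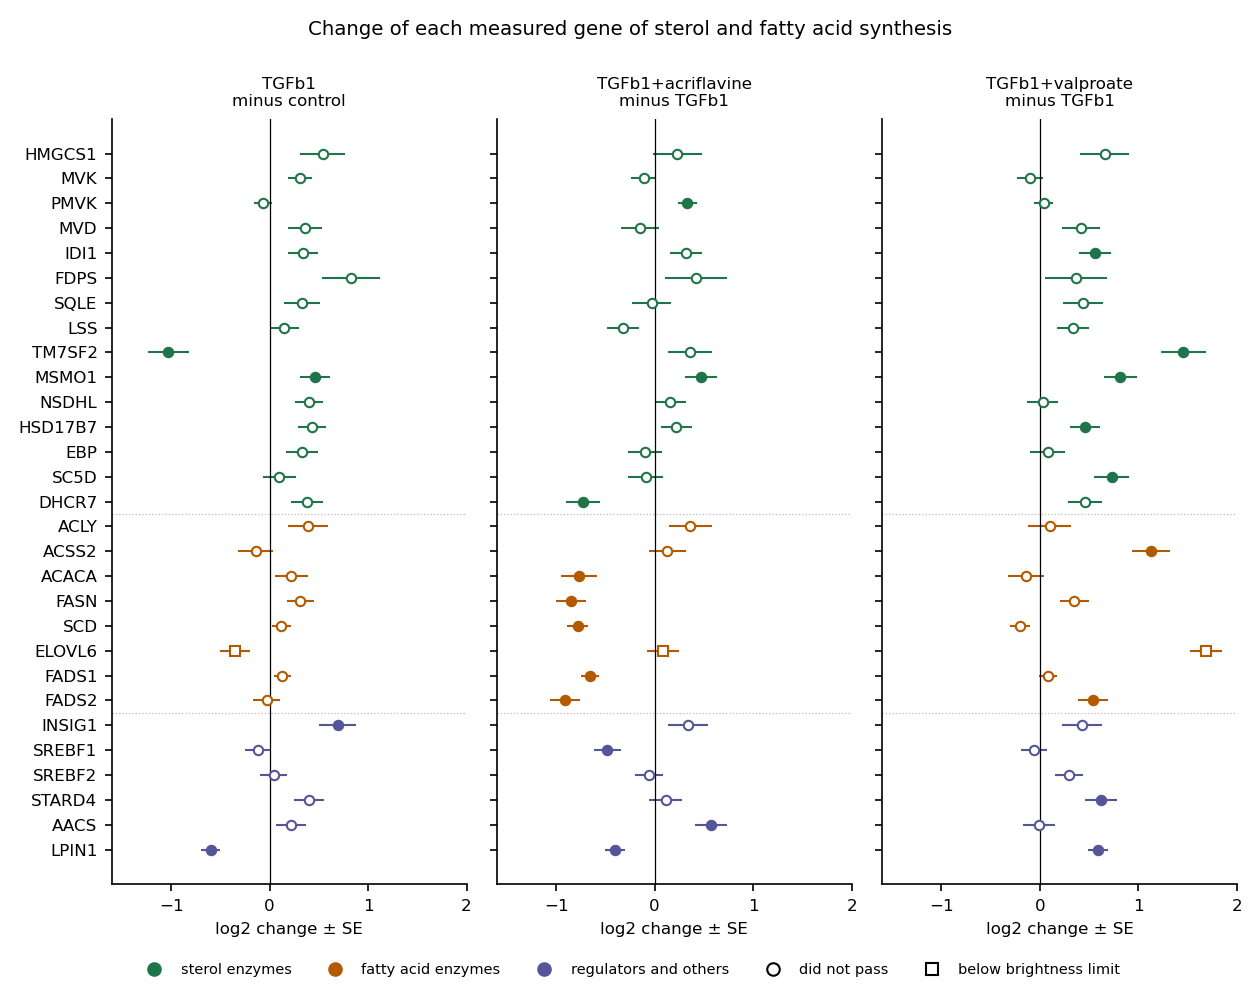
The log2 change ± SE (x axes) of each measured gene in 3 comparisons; filled points passed the test, open circles did not, and the open square (ELOVL6) lies below the brightness limit. With acriflavine the points of ACACA, FASN, SCD, FADS1 and FADS2 lie between -0.91 and -0.66, while with valproate the sterol enzymes lie between -0.10 and 1.46. The 3 panels share the TGFb1 arrays.

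The third comparison asked what valproate changed in TGFb1-treated cells. Among the sterol enzymes these rose: TM7SF2, MSMO1, SC5D, IDI1 and HSD17B7, by 1.37-fold to 2.74-fold. Among the fatty acid enzymes ACSS2 and FADS2 rose, and among the regulators STARD4 and LPIN1 rose. That is 5 of 15 sterol enzymes (33.3%), 2 of 7 fatty acid enzymes (28.6%) and 2 of 6 regulators, beside 15.1% of all genes that rose and 16.2% that fell (31.3% together). No member fell in limma, and at an unadjusted p under 0.05, 9 sterol and 3 fatty acid enzymes were higher and none of either list lower. The median change was 0.44 over the sterol enzymes, 0.10 over the fatty acid enzymes and -0.01 over all genes.

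TM7SF2 read 10.65, 9.98 and 10.54 with valproate, above each of the 4 TGFb1 arrays (8.5 to 9.44) and overlapping the control arrays. The change was 1.46 ± 0.224 (2.74-fold, adjusted p = 0.000248), and all 5 probe sets rose, by 0.49 to 1.46. MSMO1 read 12.76, 12.44 and 12.47, above the TGFb1 and the control arrays, with a change of 0.82 ± 0.163 (1.77-fold, adjusted p = 0.00166). SC5D (the C-5 sterol desaturase) read 11.01, 10.91, 11.10 and 11.80 with TGFb1 and 12.17, 11.79 and 11.85 with valproate. TGFb1 replicate 4, at 11.80, reached the valproate arrays and the other 3 did not. The change was 0.73 ± 0.179 (1.66-fold, adjusted p = 0.00668). These 3 calls were kept in each alternative setting run for them.

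IDI1 rose by 0.56 ± 0.165 (1.47-fold, adjusted p = 0.0195) and HSD17B7 by 0.46 ± 0.156 (1.37-fold, adjusted p = 0.0389), both with overlapping arrays. Without valproate replicate 1 they changed by 0.37 (adjusted p = 0.118) and 0.35 (adjusted p = 0.172). HSD17B7 also missed the threshold without valproate replicate 3 or without TGFb1 replicate 1 or 3. Just outside the test lay DHCR7 (0.46 ± 0.172, adjusted p = 0.0556) and HMGCS1 (0.66 ± 0.247, adjusted p = 0.0565). SQLE, MVD, FDPS and LSS had changes of 0.44, 0.42, 0.37 and 0.34, and EBP, PMVK, NSDHL and MVK of 0.08, 0.04, 0.03 and -0.10.

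Without the replicates 4, 8 sterol enzymes rose, and without TGFb1 replicate 2 as well, 12 of 15 rose, while 47.9% and 49.3% of all genes were called. The 3 that did not pass in the latter setting were MVK, PMVK and EBP. There HMGCS1 changed by 1.03 (adjusted p = 0.00036), SQLE by 0.78 (adjusted p = 9.11e-05), FDPS by 0.78 (adjusted p = 0.0247) and DHCR7 by 0.63 (adjusted p = 0.00376). Fatty acid enzymes that rose numbered 2 and 4 in these settings, the added ones being ACLY (0.47, adjusted p = 0.0067) and FASN (0.46, adjusted p = 0.00628).

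ACSS2 read 8.37, 9.0, 8.24 and 8.17 with TGFb1 and 9.92, 9.30 and 9.51 with valproate. No array overlapped, and control arrays, at 8.36, 8.84, 8.48 and 8.66, also lay below. The change was 1.13 ± 0.191 (2.19-fold, adjusted p = 0.000512), with both probe sets rising, and it passed in all 19 alternative settings. FADS2 read 11.93, 11.59 and 11.95 with valproate, and the lowest of these lay below TGFb1 replicate 2 at 11.65. Its change was 0.54 ± 0.15 (1.45-fold, adjusted p = 0.0138), and 0.49 (adjusted p = 0.0612) or 0.48 (adjusted p = 0.0644) without valproate replicate 1 or 3.

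The other fatty acid enzymes did not pass. FASN changed by 0.35 ± 0.149 (adjusted p = 0.0936), FADS1 by 0.08 ± 0.0923, ACLY by 0.10 ± 0.219, ACACA by -0.14 ± 0.183 and SCD by -0.20 ± 0.106 (adjusted p = 0.174). ELOVL6 (the elongase from palmitate to stearate) read 6.40, 6.0 and 5.76 with valproate, above the TGFb1 arrays (4.02 to 4.58) and the control arrays (4.5 to 5.00). When no brightness limit was applied, its change of 1.69 ± 0.162 had an adjusted p of 4.84e-06. Every one of its readings was below 6.89, so the size of this change is uncertain.

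STARD4 read 9.46, 9.06 and 9.07 with valproate, above all TGFb1 arrays, and rose by 0.62 ± 0.164 (1.54-fold, adjusted p = 0.0103), or by 0.49 (adjusted p = 0.0638) without valproate replicate 1. LPIN1 read 10.81, 10.51 and 10.52, again above all TGFb1 arrays and within the control range of 10.50 to 10.86. It rose by 0.59 ± 0.101 (1.5-fold, adjusted p = 0.000587), against a fall of 0.60 with TGFb1 alone. These values share the TGFb1 arrays. INSIG1 read 12.49, 11.92 and 11.98, a change of 0.43 ± 0.2 (adjusted p = 0.125), or 0.62 (adjusted p = 0.00548) without TGFb1 replicate 4.

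SREBF2 read 9.51, 9.53 and 9.60 with valproate, overlapping the TGFb1 arrays through TGFb1 replicate 2, and changed by 0.30 ± 0.143 (adjusted p = 0.135). SREBF1 read 9.44, 9.34 and 9.54, a change of -0.06 ± 0.135 (adjusted p = 0.783). AACS read 9.81, 9.37 and 9.82, a change of -0.01 ± 0.164 (adjusted p = 0.973).

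A list of 6 adipocyte markers moved with valproate. Its mean was 5.94 to 6.11 in control, 6.01 to 6.30 with TGFb1, 6.08 to 6.18 with acriflavine and 6.55 to 6.77 with valproate. FABP4 carried this, at 4.93 with TGFb1 and 8.18 with valproate. The other markers ADIPOQ (7.20 and 7.09), PLIN1 (6.46 and 6.33), LEP (5.72 and 5.63), CIDEC (6.66 and 6.59) and LPL (5.79 and 5.95) differed less, and 1 of the 6 had a mean above the brightness limit. Among 7 fibroblast and stellate markers the list mean was 5.99 to 6.09 in control, 6.51 to 6.83 with TGFb1, 5.90 to 6.02 with acriflavine and 7.02 to 7.16 with valproate, with COL1A1 at 8.48, 12.16, 8.28 and 12.78, and 3 of the 7 were above the limit. Over 5 endothelial markers the list mean was 6.25 to 6.51, 6.47 to 6.79, 6.52 to 6.64 and 6.80 to 6.93 in the same order, with ESAM at 6.86, 8.59, 7.96 and 9.60. The part of these markers in the results was not tested.

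**Figure D3:**
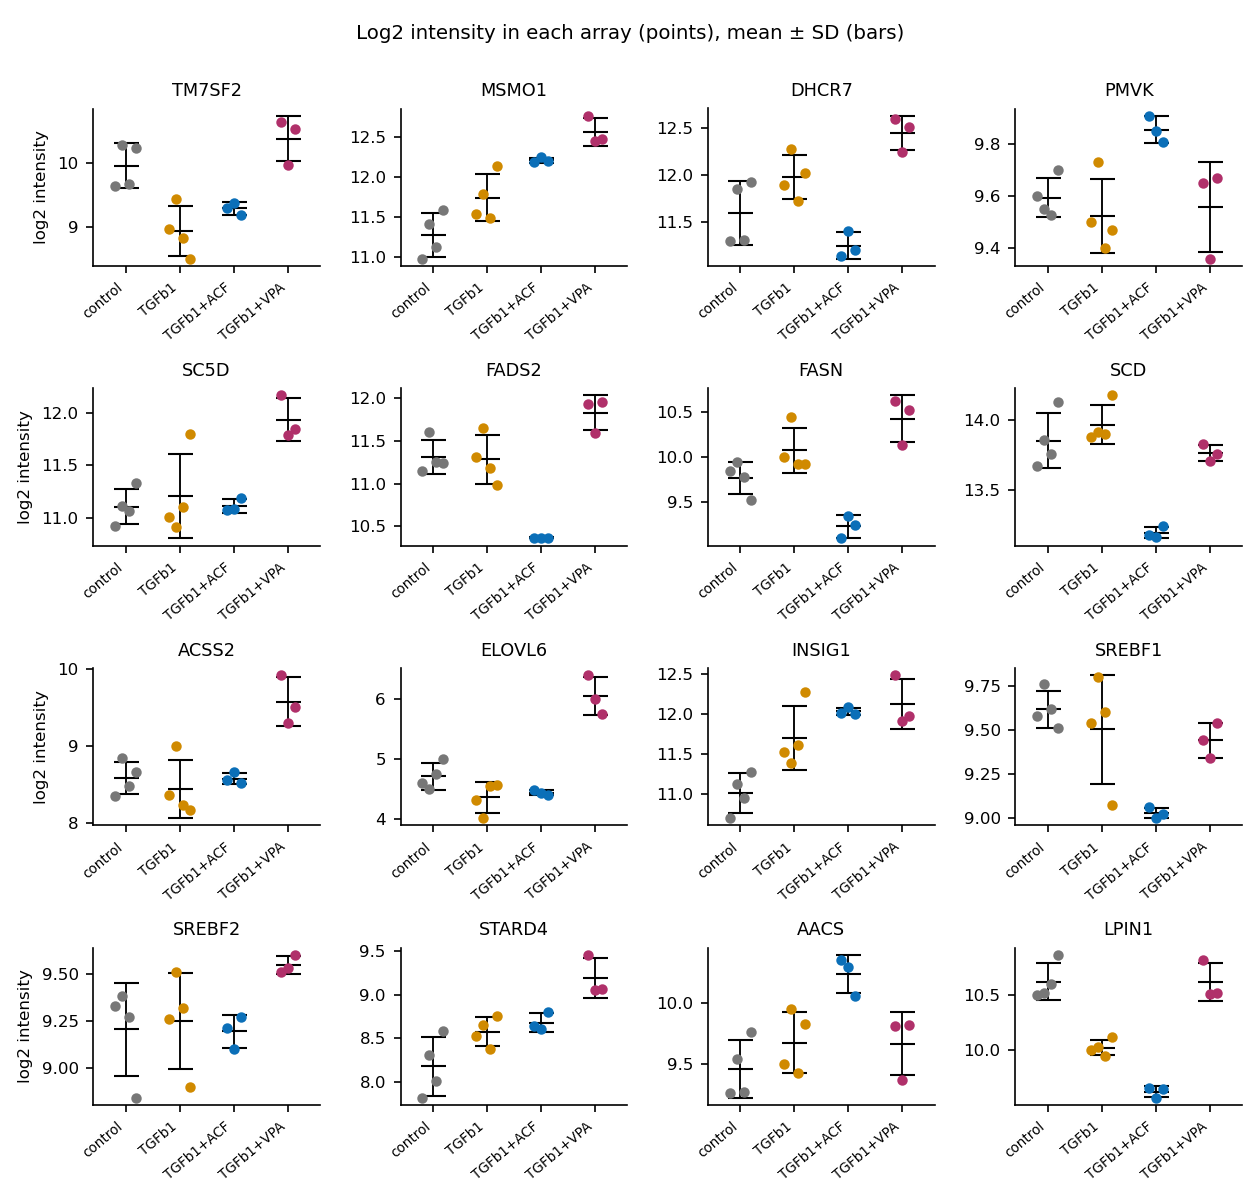
Log2 intensity (y axes, scaled per gene) of 16 members in each array by group, with mean ± SD. FADS2 reads 10.36 to 10.37 in all 3 acriflavine arrays, TM7SF2 falls from control to TGFb1 and overlaps the control arrays with valproate, and TGFb1 replicate 4 is the lowest TGFb1 array for SREBF1 (9.07).

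The added compounds were also compared directly, as acriflavine minus valproate. The differences come from these 2 groups alone, while their SE and p rest on the spread within all 4 groups. Acriflavine-treated cells were lower than valproate-treated cells in 6 of 7 fatty acid enzymes (85.7%) and in 5 of 15 sterol enzymes (33.3%), and higher in none of the former and 1 of the latter. Over all genes tested 28.3% were higher and 23.3% lower, 51.5% together. Among the fatty acid enzymes the differences were -1.45 ± 0.16 for FADS2 (2.74-fold, adjusted p = 5.68e-06), -1.20 ± 0.159 for FASN (2.30-fold, adjusted p = 2.88e-05) and -1.0 ± 0.204 for ACSS2 (2.00-fold, adjusted p = 0.00103). SCD differed by -0.57 in the kept probe set, the smallest of its 4, which ran from -1.62 to -0.57 and were all lower. FADS1 and ACACA differed by -0.74 and -0.63, and ACLY by 0.26 ± 0.234 (adjusted p = 0.383).

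The lower sterol enzymes were DHCR7 (-1.19 ± 0.184, adjusted p = 0.000105), TM7SF2 (-1.10 ± 0.239, adjusted p = 0.00168), SC5D (-0.82 ± 0.192, adjusted p = 0.00264), LSS (-0.66 ± 0.174, adjusted p = 0.00583) and MVD (mevalonate diphosphate decarboxylase, -0.57 ± 0.204, adjusted p = 0.03). PMVK was higher by 0.30 ± 0.104 (adjusted p = 0.0273). DHCR7, TM7SF2, SC5D and LSS act after squalene epoxidation, as do 4 enzymes that did not pass, MSMO1, NSDHL, HSD17B7 and EBP, at -0.35, 0.13, -0.24 and -0.18. FDPS differed by 0.05 ± 0.338 and HMGCS1 by -0.43 ± 0.264 (adjusted p = 0.196). LPIN1 (-0.99 ± 0.108, adjusted p = 5.45e-06), STARD4 (-0.52 ± 0.176, adjusted p = 0.0248) and SREBF1 (-0.41 ± 0.144, adjusted p = 0.0272) were lower, and AACS was higher (0.58 ± 0.175, adjusted p = 0.0134). SREBF2 differed by -0.36 ± 0.153 (adjusted p = 0.0663), with every acriflavine array lower, and INSIG1 by -0.09 ± 0.214 (adjusted p = 0.756). For SREBF1 1 of 3 probe sets was lower (range -0.41 to 0.15), and their mean differed by -0.21 (adjusted p = 0.193). Without the replicates 4, none of which is in these groups, SREBF2 (adjusted p = 0.00118), SQLE (-0.46, 0.0094) and MSMO1 (-0.35, 0.0176) were lower too, making 7 sterol enzymes, and with the 2 groups alone 8 were lower. Some of these calls rested on single arrays. Without valproate replicate 1, MVD stood at -0.50 (adjusted p = 0.0997), ACACA at -0.58 (0.0514), SREBF1 at -0.41 (0.061) and STARD4 at -0.38 (0.114). Without acriflavine replicate 1, MVD stood at -0.53 (0.0875), PMVK at 0.27 (0.0889), SREBF1 at -0.43 (0.0555), STARD4 at -0.50 (0.0678) and AACS at 0.52 (0.0534). MVD and SREBF1 also missed the threshold without acriflavine or valproate replicate 3, PMVK without replicate 2 of either group, SREBF1 and STARD4 without acriflavine replicate 2, and AACS without valproate replicate 2.

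Set against untreated control, more sterol enzymes rose than fell in both groups with an added compound. With TGFb1 and acriflavine 7 of 15 rose and 1 fell, beside 26.1% and 21.6% of all genes (47.7% together), and with TGFb1 and valproate 11 of 15 rose and none fell, beside 16.9% and 19.8% (36.7% together). FDPS was 2.37-fold higher in the former (1.25 ± 0.316, adjusted p = 0.00512) and 2.30-fold higher in the latter (1.20 ± 0.316, adjusted p = 0.0087). HMGCS1 rose by 0.77 ± 0.247 (adjusted p = 0.0197) and 1.20 ± 0.247 (adjusted p = 0.00179), and MSMO1 by 0.93 ± 0.163 (adjusted p = 0.000389) and 1.28 ± 0.163 (adjusted p = 3.79e-05). These comparisons share the control arrays.

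For TM7SF2 the acriflavine group was below control by -0.67 ± 0.224 (adjusted p = 0.0241) and the valproate group differed from it by 0.43 ± 0.224 (adjusted p = 0.157). The fatty acid enzymes divided: with acriflavine 5 of 7 fell and ACLY rose (0.75 ± 0.219, adjusted p = 0.0118), and with valproate 3 of 7 rose, ACSS2 (0.99 ± 0.191), FASN (0.66 ± 0.149) and FADS2 (0.51 ± 0.15), with adjusted p of 0.00108, 0.00343 and 0.0155. Without the replicates 4 the fatty acid enzymes that rose with valproate numbered 5, and without TGFb1 replicate 2 as well, 6, while 50.9% and 57.8% of all genes were called. INSIG1 rose in both, by 1.03 ± 0.2 (adjusted p = 0.000866) and 1.12 ± 0.2 (adjusted p = 0.000641). STARD4 rose by 0.50 ± 0.164 (adjusted p = 0.0213) and 1.02 ± 0.164 (adjusted p = 0.000282). With the mean of its probe sets the first of these was 0.28 (adjusted p = 0.13). SREBF2 changed by -0.01 ± 0.143 (adjusted p = 0.953) with acriflavine and by 0.34 ± 0.143 (adjusted p = 0.0768) with valproate. Every valproate array was above every control array for SREBF2, and with the replicate block its change was 0.22 (adjusted p = 0.0402). LPIN1 stood at -0.99 ± 0.101 (1.99-fold lower, adjusted p = 4.77e-06) with acriflavine and at -0.01 ± 0.101 (adjusted p = 0.965) with valproate. Against control SREBF1 fell by 0.59 ± 0.135 (adjusted p = 0.00251) with acriflavine and AACS rose by 0.78 ± 0.164 (adjusted p = 0.00143). The SREBF1 call was kept in all 19 alternative settings, but tested separately only 1 of its 3 probe sets fell, with changes from -0.59 to -0.18.

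Several of the calls against control did not survive the loss of 1 array. With acriflavine, HMGCS1 missed the threshold without control replicate 1 (0.69, adjusted p = 0.0516) or acriflavine replicate 1 or 3, and STARD4 without control replicate 1 (0.38, 0.0618) or 3 or acriflavine replicate 3. TM7SF2 missed it without control replicate 2 (-0.56, 0.0705) or 4 or acriflavine replicate 1 or 3, and ACACA without control replicate 4 (-0.42, 0.0655) or any 1 of the acriflavine arrays. PMVK, at 0.26 ± 0.0972 (adjusted p = 0.039), missed it without control replicate 1, 2 or 3 or any 1 of the acriflavine arrays. With valproate, FADS2 missed it without valproate replicate 1 (0.46, 0.0663) or 3, LSS without control replicate 1 or 3 or valproate replicate 1 (0.40, 0.127) or 3, and NSDHL without control replicate 1, 2 or 3 or valproate replicate 1 (0.34, 0.181) or 3.

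The contrast between the branches was described by the distance of their medians, fatty acid minus sterol, with no test. It was -0.21 for TGFb1 against control, -0.93 for acriflavine and -0.34 for valproate against TGFb1, and -0.81 and -0.29 for these groups against control. The value for TGFb1 was -0.06 without the replicates 4 and TGFb1 replicate 2, and that for valproate against TGFb1 was -0.08 without probe sets ending in _x_at or _s_at. In the latter setting FDPS, TM7SF2, HSD17B7, ACLY and SCD were not tested, so its medians are over fewer genes than those of the other values. With ACLY and ACSS2 left out, the fatty acid median with acriflavine against TGFb1 was -0.78 in place of -0.77, and with valproate against control it was 0.21 in place of 0.49, a distance of -0.57. In single arrays, the fatty acid mean minus the sterol mean, relative to control, was -0.06 to 0.06 in control, -0.26 to -0.03 with TGFb1, -0.70 to -0.66 with acriflavine and -0.37 to -0.26 with valproate. The acriflavine arrays lay below every other array. In the valproate arrays both means were above the control mean, at 0.94 and 0.56 in replicate 1, 0.47 and 0.21 in replicate 2 and 0.72 and 0.46 in replicate 3. In the acriflavine arrays they had opposite signs, at 0.30 and -0.37, 0.38 and -0.33, and 0.30 and -0.36.

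**Figure D4:**
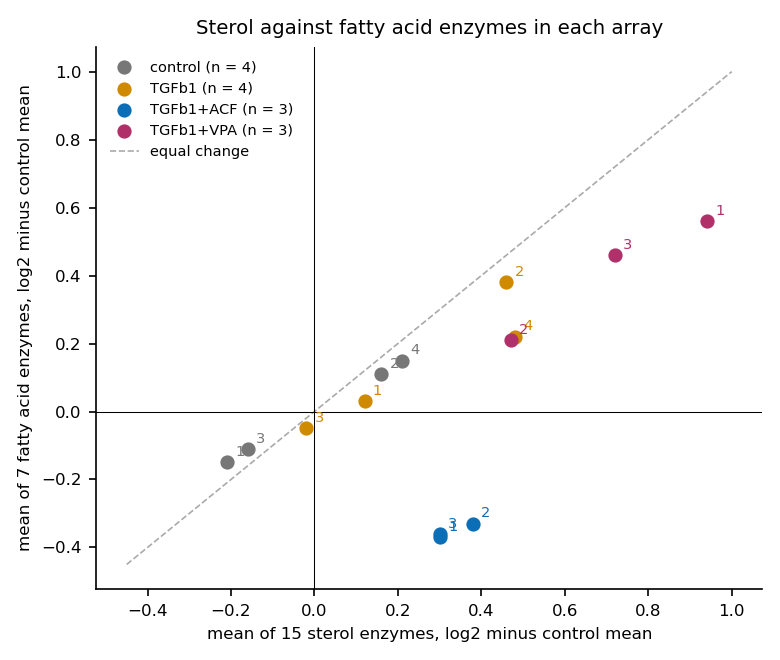
The mean of the 7 fatty acid enzymes (y axis) against the mean of the 15 sterol enzymes (x axis) in each array, log2 minus the control mean; numbers are replicates and the dashed line marks equal change. The 3 acriflavine arrays lie at 0.30 to 0.38 on the x axis and -0.37 to -0.33 on the y axis, apart from the line, while control arrays lie along it.

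Other genes of lipid metabolism were taken as lists, and their counts are set beside the shares of all genes that rose and fell: 8.39% and 9.97% with TGFb1, 24.5% and 19.1% with acriflavine against TGFb1, and 15.1% and 16.2% with valproate against TGFb1. Of 11 tested genes of the SREBP machinery, 1 fell with TGFb1, 2 fell with acriflavine against TGFb1, and 1 rose and 3 fell with valproate against TGFb1. The falls were 9.09%, 18.2% and 27.3% of the list, the first and second close to the background. INSIG2, the second retention protein, rose by 1.30 ± 0.176 with valproate (adjusted p = 9.01e-05). The NF-Y subunits NFYC and NFYB, whose complex binds the CCAAT box shown above, fell by 0.84 ± 0.167 (adjusted p = 0.00169) and 0.48 ± 0.116 (adjusted p = 0.00647) with valproate. NFYB was also the gene that fell with TGFb1 against control, at -0.47 ± 0.107 (adjusted p = 0.00729). NFYA fell by 0.43 ± 0.0968 (adjusted p = 0.00245) and SP1, which binds GC boxes, by 0.32 ± 0.0899 (adjusted p = 0.01) with acriflavine.

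Of 11 tested genes of cholesterol handling and efflux, 2 rose and 2 fell with TGFb1, 4 rose and 2 fell with acriflavine, and 4 rose and none fell with valproate. Those are 18.2% and 18.2%, 36.4% and 18.2%, and 36.4% and 0% of the list, with the falls under acriflavine close to the background. At an unadjusted p under 0.05 in limma 2 were higher and 5 lower with TGFb1, and 4 higher and none lower with valproate. ABCA1, the cholesterol efflux pump, rose by 1.69 ± 0.292 with TGFb1 (adjusted p = 0.00109). It fell by 1.58 ± 0.315 when acriflavine was added (adjusted p = 0.00111), over shared TGFb1 arrays. In valproate-treated cells ABCA1 was 2.36 ± 0.315 above control (adjusted p = 5.84e-05), but against TGFb1 its difference did not pass. With acriflavine MYLIP, a ubiquitin ligase of lipoprotein receptors, rose by 1.05 ± 0.163 (adjusted p = 0.000165). With valproate the lysosomal genes LIPA (acid lipase, 0.74 ± 0.108, adjusted p = 0.000166) and NPC2 (cholesterol export, 0.57 ± 0.0714, adjusted p = 4.43e-05) rose.

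Of 24 tested acyl chain and glycerolipid genes, 3 rose and 3 fell with TGFb1, 4 rose and 6 fell with acriflavine, and 6 rose and 2 fell with valproate. Those are 12.5% and 12.5%, 16.7% and 25%, and 25% and 8.33% of the list. ME1 (malic enzyme, a source of NADPH) fell by 0.95 ± 0.159 with acriflavine (adjusted p = 0.000303) and rose by 0.84 ± 0.159 with valproate (adjusted p = 0.00117). MID1IP1, an activator of acetyl-CoA carboxylase, fell by 1.25 ± 0.369 with acriflavine (adjusted p = 0.0137). ELOVL7 (a long-chain elongase) stood at -0.75 ± 0.235 with TGFb1 (adjusted p = 0.0397), and rose by 0.83 ± 0.253 with acriflavine (adjusted p = 0.017) and by 1.53 ± 0.253 with valproate (adjusted p = 0.000433) against TGFb1, over shared TGFb1 arrays. FABP5, a fatty acid carrier, rose by 0.84 ± 0.165 with TGFb1 (adjusted p = 0.00275).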

How the data were processed

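RNA of 14 PANC-1 cultures was hybridised to Affymetrix 3' arrays from 200 ng of total RNA. The authors' deposited values are log2 intensities made with RMA in the affy package 1.44.0, per the submitters' processing notes; a genome build is not given in the sources used here. Intensities have no read depth, so the number of arrays limits precision. Of 49193 probe sets, 44898 name 1 gene, 1825 several and 2470 are unnamed here.

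The brightest probe set per gene was fitted with limma 3.58.1 in R 4.3.3, with 1 mean per group over all 14 arrays and Benjamini-Hochberg adjustment over 10877 genes, and checked on simulated data. Members and lists were chosen with earlier results of these data known, as was the rule for named genes: per-array values for the 3 sterol and 3 fatty acid enzymes of largest change that passed in each comparison with TGFb1, and for the regulators; up to 3 other pathway genes per list and comparison.

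Replicate numbers were checked for pairing. Deviations of same-numbered control and TGFb1 arrays correlated at 0.387, 0.359, 0.543 and 0.705, so that comparison is also given with the number as a block; over replicates 1 to 3 alone these were -0.258, 0.151 and 0.589. Alternatives changed the brightness limit, probe set rule, normalisation, model and arrays used.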

Additional observations from a re-analysis of the deposited data

Results flagged for a closer look

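Among 58 sets of 4 arrays, 1 for each measured gene in control and in TGFb1, 2 held an array far from the other 3; chance alone gives about 5% of sets. FASN in TGFb1 replicate 2 read 10.44 where the other arrays of the group read 9.92 to 10.00. SCD in TGFb1 replicate 4 read 14.18 where the others read 13.88 to 13.92. Neither array changes the fall of these genes with acriflavine, which passed when it was left out.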

How the results depend on the processing

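The 5 falls of fatty acid enzymes with acriflavine against TGFb1 were kept in every alternative setting in which the gene was tested. Without probe sets ending in _x_at or _s_at, SCD, ACLY, FDPS, TM7SF2 and HSD17B7 were not tested, so counts and medians there cover fewer genes. In that setting 4 fatty acid enzymes fell. Of the values given as counts or distances of medians, 397 were as in the reported fit or close to it (counts within 1.5 times) and 65 moved, outside the settings that leave out 1 array. Of the single-gene values, 1850 stayed on the same side of the threshold, 113 passed newly and 22 no longer passed. With 1 array left out, 1078 stayed on the same side, 27 passed newly and 71 no longer passed. A turn of sign was counted only where a value passed, and outside the settings that leave out 1 array this held for 1 value. That value was SQLE with acriflavine against TGFb1, from -0.03 to 0.32 without the replicates 4 and TGFb1 replicate 2. Causes were not tested. The array signal sets no read depth, and genes near background, such as ELOVL6, have uncertain sizes.

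For TGFb1 against control, the sterol enzymes that rose numbered 1 and became 0 with no brightness limit, with the dimmest 20% left out, without probe sets ending in _x_at or _s_at, or with the 2 groups alone; 2 with quantile normalisation repeated; 5 with a batch term for the replicates 4; and 3 without the replicates 4. Those that fell became 0 without the _x_at and _s_at probe sets, because TM7SF2 was not tested in that setting. The fatty acid enzymes that rose became 1 with the mean of probe sets, the batch term, or every probe set tested. Genes called numbered 1997, and 963 with the 2 groups alone, 3547 with the batch term and 3155 without the replicates 4. The distance was -0.13 with the mean of probe sets and -0.06 without the replicates 4 and TGFb1 replicate 2.

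The replicate block, a term for the replicate number over all 14 arrays, gave 5 sterol enzymes that rose and 3148 genes called for TGFb1 against control. It was not clear for any comparison whether the numbers pair the samples. Over replicates 1 to 3, deviations of same-numbered TGFb1 and acriflavine arrays correlated at -0.000472, 0.398 and 0.368. For TGFb1 and valproate arrays these were -0.1, -0.638 and -0.577, and for control and TGFb1 arrays -0.258, 0.151 and 0.589. The replicate block gave 1 fatty acid enzyme that rose with acriflavine against TGFb1. With valproate against TGFb1 it gave 8 sterol enzymes that rose and a distance of -0.26, and with valproate against control a distance of -0.46.

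With acriflavine against TGFb1, sterol enzymes that rose numbered 1 with the mean of probe sets or without the _x_at and _s_at probe sets, 4 without the replicates 4 and 8 without TGFb1 replicate 2 as well; 2 fell without the replicates 4. With the batch term, without the replicates 4, and without TGFb1 replicate 2 as well, 1 fatty acid enzyme rose. The distance was -0.74 without the _x_at and _s_at probe sets and -1.02 without the replicates 4 and TGFb1 replicate 2.

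With valproate against TGFb1, sterol enzymes that rose numbered 3 without the _x_at and _s_at probe sets or with the 2 groups alone, 8 with the batch term or without the replicates 4, and 12 without TGFb1 replicate 2 as well. In the first of these settings TM7SF2 and HSD17B7 were not tested, and the other enzymes that rose still passed. Fatty acid enzymes that rose numbered 1 with the 2 groups alone and 4 in the last setting, and 1 fell when every probe set was tested. Genes called numbered 2263 with the 2 groups alone, 5208 without the replicates 4 and 5364 without TGFb1 replicate 2 as well. The distance was -0.21 with no brightness limit, -0.08 without the _x_at and _s_at probe sets, -0.26 with the batch term and -0.19 without the replicates 4 and TGFb1 replicate 2.

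Against control with acriflavine, leaving out the _x_at and _s_at probe sets gave 0 sterol enzymes that fell and 0 fatty acid enzymes that rose. TM7SF2 and ACLY, which gave these calls with all probe sets, were not tested there. Against control with valproate, fatty acid enzymes that rose numbered 5 with the batch term, without the replicates 4 or with every probe set tested, and 6 without TGFb1 replicate 2 as well, where 6292 genes were called; the distance was -0.14 without the _x_at and _s_at probe sets, -0.46 with the batch term, -0.37 without the replicates 4 (also without TGFb1 replicate 2) and -0.57 without ACLY and ACSS2. For acriflavine minus valproate the distance was -0.51 with no brightness limit, -0.73 with the mean of probe sets and -0.55 without the _x_at and _s_at probe sets; 0 sterol enzymes were higher with quantile normalisation repeated, and 8 were lower with the 2 groups alone or without the replicates 4 and TGFb1 replicate 2.

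Leaving out 1 array at a time, TGFb1 against control gave 0 to 5 sterol enzymes that rose, 1387 (without control replicate 3) to 3149 (without TGFb1 replicate 4) genes called and distances of -0.30 to -0.15. Acriflavine against TGFb1 gave 0 (without acriflavine replicate 1) to 4 (without TGFb1 replicate 4) sterol enzymes that rose, 1 to 2 that fell, 0 to 1 fatty acid enzymes that rose, 5 that fell each time, 3748 to 5614 genes and distances of -0.95 to -0.83. Valproate against TGFb1 gave 3 (without valproate replicate 1) to 8 (without TGFb1 replicate 2) sterol and 1 to 3 fatty acid enzymes that rose, 2588 to 4397 genes and distances of -0.34 to -0.26. Against control, acriflavine gave 5 to 7 sterol enzymes that rose, 0 to 1 that fell, 4 to 5 fatty acid enzymes that fell and distances of -0.83 to -0.78, and valproate gave 9 to 12 sterol and 2 to 5 fatty acid enzymes that rose, 3064 to 3990 genes and distances of -0.37 to -0.28. Acriflavine minus valproate gave 0 to 1 sterol enzymes higher, 4 to 5 lower, 5 to 6 fatty acid enzymes lower, 4725 to 4948 genes and distances of -0.52 to -0.28.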

Other observations

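Fatty acid oxidation is the catabolic counterpart of the fatty acid enzymes. Of 17 tested genes 4 rose and 4 fell (23.5% each) with acriflavine against TGFb1, close to the 24.5% and 19.1% of all genes. ECI1 (a mitochondrial enoyl-CoA isomerase) fell by 1.62 ± 0.127 (adjusted p = 4.8e-07) and ETFDH (electron transfer flavoprotein dehydrogenase) by 0.77 ± 0.126 (adjusted p = 0.000264). ACADVL (very long-chain acyl-CoA dehydrogenase) rose by 1.08 ± 0.0973 (adjusted p = 1.69e-06). With valproate against TGFb1 5 of 17 (29.4%, beside 15.1% of all genes) rose in limma, among them ECI2 (0.66 ± 0.165, adjusted p = 0.00767). None fell, beside 16.2% of all genes, and at an unadjusted p under 0.05, 8 were higher and 1 lower. Against control 1 rose and 3 fell with valproate (5.88% and 17.6%, beside 16.9% and 19.8% of all genes). With TGFb1 against control none rose and 2 fell (11.8%, beside 9.97% of all genes; 0 higher and 8 lower at an unadjusted p under 0.05), CPT1A (the carnitine acyltransferase of the outer membrane, by 0.36 ± 0.0655, adjusted p = 0.00176) and ACADS (short-chain acyl-CoA dehydrogenase, by 0.34 ± 0.0792, adjusted p = 0.00886).

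The isoprenoid branches draw on the products of FDPS. Of 9 tested genes 1 rose and 1 fell with TGFb1 (11.1% each, beside 8.39% and 9.97% of all genes), 2 rose and none fell with acriflavine (22.2%, beside 24.5% of all genes that rose and 19.1% that fell; 3 higher and 1 lower at an unadjusted p under 0.05), and 2 rose and 3 fell with valproate (22.2% and 33.3%, beside 15.1% and 16.2%). PDSS1, which makes the coenzyme Q side chain, rose by 0.47 ± 0.0868 with TGFb1 (adjusted p = 0.00176) and by a further 0.64 ± 0.0938 with acriflavine (adjusted p = 0.000107). COQ2, which joins that chain to the ring, rose by 0.30 ± 0.112 with acriflavine (adjusted p = 0.0434) and fell by 0.75 ± 0.112 with valproate (adjusted p = 0.000187).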
